A study of Mus musculus with 24 samples.

Results

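Sphingosine 1-phosphate (S1P) is a signaling lipid, and 10 mouse genes of its pathway were followed across 2 mammary tumor lines in culture and in tumors. The genes were the receptors S1pr1, S1pr2, S1pr3, S1pr4 and S1pr5, the kinases Sphk1 and Sphk2, the lyase Sgpl1, the phosphatase Sgpp1 and the exporter Spns2. They were taken by symbol from the deposited gene tables, and all 10 were found by Ensembl identifier among the 35275 genes of the cell table and the 54532 genes of the tumor table. S1pr3 had been singled out for its higher level in D2.1 than in D2A1 cells in culture, so the values of that contrast are given as a description without a test, and the other contrasts of S1pr3 with culture are treated the same way.

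The study compared D2.1 and D2A1, sister lines derived from hyperplastic alveolar nodules of BALB/c mice, of which D2.1 is the slow or dormant partner and D2A1 the aggressive one. Cells were sequenced from culture (n = 3 libraries per line), and whole tumors were sequenced from the mammary fat pads of female BALB/c mice of 8 to 12 weeks of age, which have the strain background of the lines and an intact immune system (n = 4 per line), and of female SCID-beige mice of the same age range, which carry the scid mutation of Prkdc and the beige mutation of Lyst, lack functional T and B cells and have defective NK cells (n = 5 per line). The age is stated for mice used in tumor studies, without saying whether at implantation or at collection. Tumors of both lines were collected at a similar volume, so line and time in the mouse cannot be told apart. The labels name no drug, and no genetic change of the lines. Each tumor library holds RNA of host cells together with that of the implanted line, so that in every tumor result fewer cells of a type and less RNA per cell cannot be told apart. Library totals were 16837260 to 24818234 counts in culture and 13566949 to 18355153 in tumors, so that 3 counts, taken as the detection floor, corresponded to 0.142 to 0.204 CPM (the count relative to the library total, scaled by the TMM method). The summed level of 5 mammary epithelial markers (Krt8, Krt18, Krt14, Epcam and Cdh1) was 2509 to 4979 CPM in cultured D2.1 and 139 to 364 CPM in cultured D2A1, with no marker at 0 in a whole group. Replicate 1 of the D2.1 BALB/c tumors held 403 CPM of milk protein transcripts and replicate 4 held 118 CPM of skin keratin transcripts, against a median of 0.711 and 15.1 CPM in that group, and results that rest on this group are given without both where that ends a call.

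S1P is made inside cells when a sphingosine kinase phosphorylates sphingosine, the product of ceramide breakdown. It is returned to sphingosine by phosphatases such as Sgpp1, or degraded irreversibly by the lyase Sgpl1, and it leaves some cells through the transporter Spns2. Outside the cell it acts on G protein-coupled receptors. S1pr1 signals through Gi and is known for its role in endothelium and in lymphocyte egress. S1pr2 couples strongly to G12/13, and S1pr3 couples to Gi, Gq and G12/13. S1pr4 is mainly a leukocyte receptor, and S1pr5 is known from oligodendrocytes and NK cells.

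The windows upstream of S1pr3, S1pr2 and S1pr4 are shown because these receptors behaved differently below: S1pr3 differed between the lines in culture and in tumors, S1pr2 did not pass the test between the lines in tumors, and S1pr4 was at or under 4 counts in every culture library. Each window is the 250 bases before the start site in RefSeq (GRCm38.p6), written 5′ to 3′ on the strand of the gene, with CpG dinucleotides in capitals.
S1pr3, chr13:51408368-51408617, plus strand: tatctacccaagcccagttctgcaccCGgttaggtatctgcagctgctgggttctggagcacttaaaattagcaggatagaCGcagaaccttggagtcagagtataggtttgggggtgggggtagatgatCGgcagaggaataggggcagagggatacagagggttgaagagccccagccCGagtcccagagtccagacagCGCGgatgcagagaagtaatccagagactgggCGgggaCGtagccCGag
S1pr2, chr9:20976794-20977043, minus strand: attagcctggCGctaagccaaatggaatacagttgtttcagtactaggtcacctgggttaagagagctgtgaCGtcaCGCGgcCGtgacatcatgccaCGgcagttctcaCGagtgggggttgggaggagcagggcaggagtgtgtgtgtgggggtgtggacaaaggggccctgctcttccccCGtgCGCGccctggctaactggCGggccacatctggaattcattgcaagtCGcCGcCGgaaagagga
S1pr4, chr10:81500138-81500387, minus strand: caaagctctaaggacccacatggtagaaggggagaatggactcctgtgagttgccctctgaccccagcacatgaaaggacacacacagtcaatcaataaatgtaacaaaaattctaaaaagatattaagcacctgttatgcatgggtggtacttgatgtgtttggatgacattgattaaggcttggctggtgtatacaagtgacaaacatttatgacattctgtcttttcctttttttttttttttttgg
The S1pr3 window held 9 CpG and the S1pr2 window 14, against a median of 6 over 32817 mouse windows of the same length, and the S1pr4 window held 0. The GC content was 56.4% for S1pr3, 59.2% for S1pr2 and 38.8% for S1pr4, against a median of 52.4%. On both strands, a GC box (GGGCGG, found in 32.7% of all windows) occurred 1 time in the S1pr3 window and in neither of the other two. The letters TATAAA (12.4% of all windows), CCAAT (33.8%), TGACTCA (4.46%) and GGAATG (12.6%) were not found in these 3 windows. RefSeq windows were matched for 9 of the 10 genes, and S1pr1 was without one.

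S1pr3 (ENSMUSG00000067586, chr13:51408639-51422797, plus strand, mm10) was detected in all groups but cultured D2A1 cells. In cultured D2.1 cells its level was 9.71, 11.8 and 6.19 CPM, from 167, 250 and 108 counts, and in cultured D2A1 cells it was at 0 counts in all 3 libraries. Against the floor of 3 counts per library, the D2.1 mean of 9.24 ± 2.85 CPM (SD, n = 3) was at least 51.5-fold higher. In BALB/c mice, D2.1 tumors held 296, 236, 223 and 216.8 CPM and D2A1 tumors 7.55, 6.56, 6.88 and 9.36 CPM. In SCID-beige mice, D2.1 tumors held 179, 203, 97.5, 94.2 and 263 CPM and D2A1 tumors 6.18, 2.84, 5.16, 7.78 and 6.57 CPM. Every D2.1 tumor was above every D2A1 tumor in both hosts, and the 5 D2.1 tumors of SCID-beige mice were more spread than the 4 of BALB/c mice, with replicates 3 and 4 lowest. In order of the mean, D2.1 BALB/c tumors (243 ± 36.3 CPM) came first and overlapped those of SCID-beige mice (167 ± 72.1 CPM), with a clear gap to cultured D2.1 cells. Cultured D2.1 cells overlapped D2A1 BALB/c tumors (7.59 ± 1.25 CPM), these overlapped D2A1 tumors of SCID-beige mice (5.71 ± 1.86 CPM), and cultured D2A1 cells stood below all others. The gene shares 45 of its 4463 exonic bases with Gm32834 on the other strand, a lincRNA that reached at most 7 counts in any tumor.

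**Figure D1:**
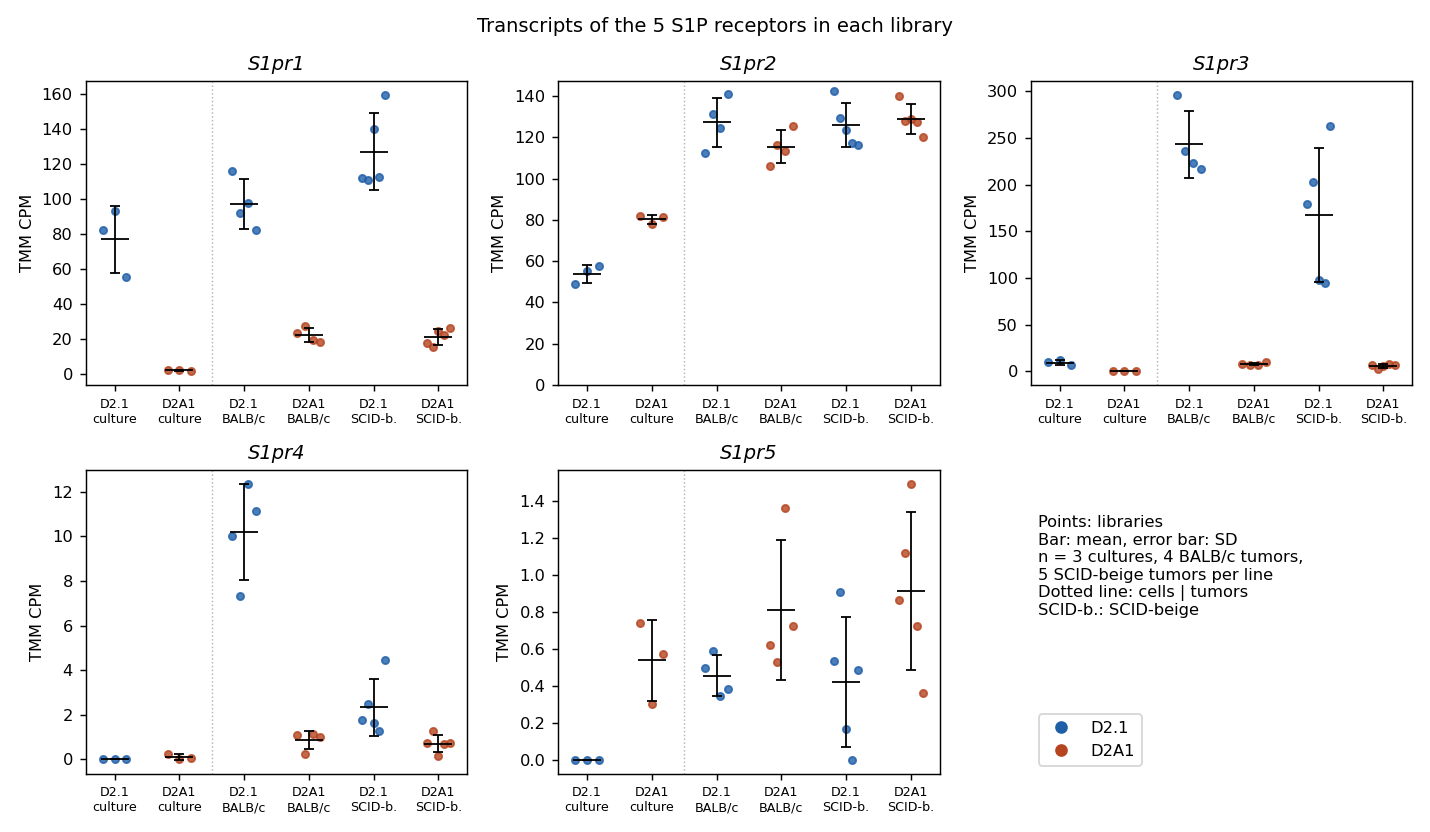
Levels of the 5 S1P receptors in TMM-normalized CPM (y axis, linear, own scale per panel) in the 6 groups (x axis); points are libraries, bars the mean and SD. S1pr3 lies between 94.2 and 296 CPM in the D2.1 tumors and between 2.84 and 9.36 CPM in the D2A1 tumors, while S1pr2 overlaps between the lines in both hosts.

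The first question was whether the S1P genes differ between tumors of the 2 lines. In BALB/c mice, 9 of the 10 genes passed the filter on low counts and 5 of these passed the test, 4 of them higher and 1 lower in D2.1 tumors, beside 32.6% of all 14953 genes tested (16.8% higher and 15.8% lower). In SCID-beige mice all 10 genes were tested and 6 passed, 5 higher and 1 lower, beside 32.1% of 14355 genes (17.2% higher and 14.8% lower). The median log2 fold change of the tested members was 0.44 in both hosts, against -0.02 and 0.02 over all genes. The libraries of the 2 lines did not overlap for 5 members in each host, beside 34.2% and 23.7% of all genes. Both S1pr3, chosen for its line difference in culture, and S1pr4 are included in these values. S1pr4 held 4 to 19 counts in D2A1 BALB/c tumors and 2 to 19 in those of SCID-beige mice. It passed the filter through the D2.1 tumors, so the counts and medians are not read as apart from all genes.

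Among the receptors, S1pr3 was 32.0-fold higher in D2.1 than in D2A1 BALB/c tumors, with a log2 fold change of 4.97 ± 0.18 (SE; adjusted p = 3.0e-07, edgeR). In SCID-beige mice it was 29.3-fold higher (4.87 ± 0.36, adjusted p = 4.1e-07). A 2-sided exact permutation test gave p = 0.029 in BALB/c and p = 0.0079 in SCID-beige mice, in each case the smallest that these group sizes allow. The difference between lines was not detectably different between hosts (interaction 0.10 ± 0.40, adjusted p = 0.98). The fibroblast list moved with this difference: 7 of its 8 genes were higher in D2.1 BALB/c tumors and 5 of 8 in SCID-beige mice. Over all genes 16.8% and 17.2% were higher. The sums were 5292 to 9137 CPM against 1609 to 2774 CPM in BALB/c mice. In SCID-beige mice they were 3185 to 6877 against 1152 to 2739 CPM. In culture the fibroblast sum was 1947 to 2806 CPM in D2.1 and 82.6 to 106 CPM in D2A1. Its genes were not alike in cultured D2.1, with Pdgfra at 60.4 to 81.0 CPM and Dpt at 0 to 0.379 CPM. The part of fibroblasts in the S1pr3 level was not tested. Of 10 mural cell genes, 1 was higher and 2 were lower in D2.1 BALB/c tumors and 5 were lower in SCID-beige mice. Over all genes 16.8% were higher and 15.8% lower in BALB/c mice, and 14.8% were lower in SCID-beige mice.

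S1pr1 (ENSMUSG00000045092, chr3:115710433-115715072, minus strand) differed between the lines in the same direction. Its level was 116, 92.0, 97.7 and 82.1 CPM in D2.1 BALB/c tumors and 23.5, 27.0, 19.4 and 18.3 CPM in D2A1 tumors. In SCID-beige mice the D2.1 tumors held 112, 111, 140, 112 and 159 CPM and the D2A1 tumors 17.2, 15.4, 24.3, 22.0 and 26.1 CPM. Groups of the 2 lines did not overlap in either host, and the log2 fold change was 2.103 ± 0.19 in BALB/c (adjusted p = 2.2e-05) and 2.59 ± 0.19 in SCID-beige mice (adjusted p = 4.1e-07), or 4.40-fold and 6.04-fold. The endothelial list went the other way: 8 of its 10 genes in BALB/c mice and 9 of 10 in SCID-beige mice were lower in D2.1 tumors. Over all genes 15.8% and 14.8% were lower. The endothelial sums were 111 to 183 CPM against 314 to 360 CPM in BALB/c mice. In SCID-beige mice they were 78.2 to 127 against 277 to 373 CPM. Cultured D2.1 cells held 81.9, 93.1 and 55.5 CPM of S1pr1 with at most 3.37 CPM of the endothelial sum, and cultured D2A1 cells held 2.28, 1.82 and 1.37 CPM of S1pr1, a 42.1-fold difference of the means. Across the 9 tumors of each line the S1pr1 level and the endothelial sum gave Pearson's r of -0.48 in D2.1 and 0.55 in D2A1 (2-sided exact permutation p = 0.39 and 0.37 after adjustment over 6 relations; Spearman's coefficient -0.30 and 0.57, p = 0.52 and 0.24). Without the 2 tumors farthest from the median sum r was -0.75 and 0.80, and centred within host it was 0.06 in D2.1. Of other lists, 10 of 10 T cell, 6 of 7 NK cell and 7 of 8 fibroblast genes were higher in D2.1 BALB/c tumors. For macrophages it was 2 of 10, beside 16.8% over all genes. The part of any of these cell types in the S1pr1 level was not tested.

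S1pr2 (ENSMUSG00000043895, chr9:20962361-20976781, minus strand) did not pass the test in either host. It lay at 127 ± 11.9 CPM in D2.1 and 115 ± 7.97 CPM in D2A1 BALB/c tumors and at 126 ± 10.8 and 129 ± 7.13 CPM in SCID-beige mice. The log2 fold changes were 0.12 ± 0.13 (adjusted p = 0.54) and -0.04 ± 0.12 (adjusted p = 0.82), the smallest in size among the members tested in each host. In culture the levels were 48.8, 55.0 and 57.5 CPM in D2.1 and 82.0, 77.9 and 81.4 CPM in D2A1, so that every D2A1 library was above every D2.1 library there.

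S1pr4 (ENSMUSG00000044199, chr10:81497747-81500132, minus strand) had its highest levels in D2.1 BALB/c tumors. D2.1 BALB/c tumors held 9.99, 7.33, 12.4 and 11.1 CPM and those of SCID-beige mice 1.78, 2.49, 1.62, 1.29 and 4.44 CPM. D2A1 tumors held 1.07, 0.237, 1.13 and 1.003 CPM in BALB/c mice and 0.731, 1.25, 0.136, 0.663 and 0.723 CPM in SCID-beige mice. The line difference passed in BALB/c mice (3.53 ± 0.43, adjusted p = 1.8e-04, 11.9-fold) and in SCID-beige mice (1.71 ± 0.54, adjusted p = 0.027), and the latter was lost when any 1 of 4 tumors was left out (D2.1 replicates 2 and 5, D2A1 replicates 1 and 4; adjusted p of 0.056 to 0.091). Cultured D2.1 cells were at 0 counts and cultured D2A1 cells at 4, 0 and 1 counts. T cell and NK cell markers moved with the line: 10 of 10 and 6 of 7 genes were higher in D2.1 BALB/c tumors. In SCID-beige mice 3 of 4 tested T cell genes were higher and 1 lower, and 5 of 6 NK cell genes were higher. Over all genes 16.8% and 17.2% were higher in the 2 hosts. The NK cell list is not specific to host cells. Its sum was 29.2 to 35.2 CPM in cultured D2A1 and 4.36 to 6.57 CPM in cultured D2.1, against 14.1 to 35.1 CPM in D2A1 BALB/c tumors. Its gene Ncr1, at 0 to 1.003 CPM in D2A1 BALB/c tumors and 18.3 to 25.3 CPM in those of D2.1, passed the filter through the D2.1 tumors. Cd3e, a T cell gene, was at most 0.397 CPM in D2.1 tumors of SCID-beige mice. Of 10 macrophage genes 2 were higher in BALB/c and 4 in SCID-beige mice. Macrophage sums overlapped in BALB/c mice (2582 to 3549 against 2476 to 4805 CPM). The part of leukocytes in the S1pr4 level was not tested.

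S1pr5 (ENSMUSG00000045087, chr9:21242912-21248443, minus strand) was at 0 to 0.906 CPM over the 9 D2.1 tumors and 0.362 to 1.49 CPM over the 9 D2A1 tumors. It did not pass the filter in BALB/c mice, and in SCID-beige mice its log2 fold change was -1.11 ± 0.71 (adjusted p = 0.26). Cultured D2.1 cells held 0 counts in all 3 libraries and cultured D2A1 cells 12, 5 and 10 counts.

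Levels of different receptors were compared per length, as the deposited FPKM (fragments scaled to gene length and library total), and only within a table, since the cell and tumor tables use different gene lengths. Tumor lengths matched the mean over transcripts for 95.5% of genes, and cell lengths the longest transcript for 75.4%. S1pr2 has 4 annotated transcripts, and S1pr1 and S1pr3 have 1 each. The share of S1pr2, and its order beside S1pr3 in D2.1 tumors, therefore depend on the length used. In D2.1 BALB/c tumors the summed FPKM of the 5 receptors was 147 ± 8.33, of which S1pr2 made up 39.2% ± 5.22, S1pr3 36.5% ± 3.47 and S1pr1 21.3% ± 2.20 (SD, n = 4). In D2A1 tumors of the same host the sum was 65.7 ± 3.51, and S1pr2 made up 84.5% ± 1.81, S1pr1 11.7% ± 2.27 and S1pr3 2.73% ± 0.383. In SCID-beige mice the S1pr3 share was 17.5% to 35.4% in D2.1 and 0.979% to 2.58% in D2A1 tumors, with S1pr2 at 31.8% to 47.8% and 83.9% to 89.7%. The D2.1 tumors thus spread their receptor transcripts over 3 genes where the D2A1 tumors had most of them on S1pr2. In culture S1pr2 held 97.1% ± 0.786 of the receptor FPKM in D2A1, and D2.1 cells divided it between S1pr1 (53.9% ± 7.19) and S1pr2 (41.7% ± 7.99), with 4.36% ± 0.815 for S1pr3 (n = 3 each).

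**Figure D2:**
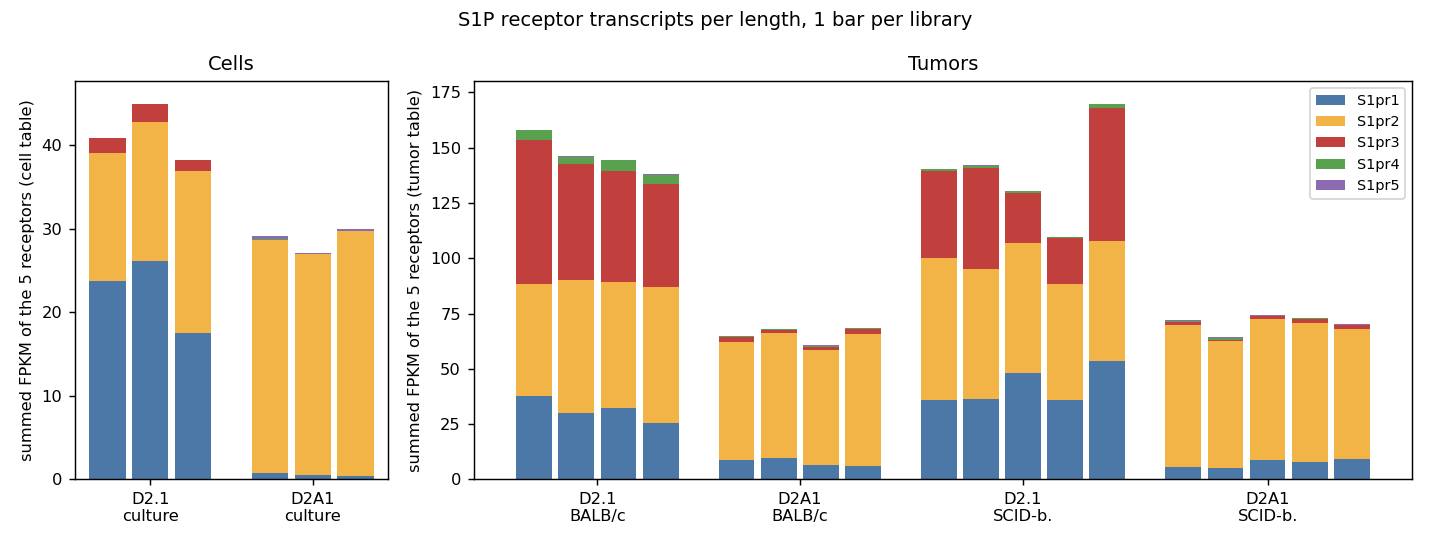
Summed FPKM of the 5 S1P receptors (y axis, linear, 1 scale for the cell table and 1 for the tumor table, which are not comparable), 1 stacked bar per library grouped by line and host. S1pr2 makes up 82.7% to 89.7% of the bars of D2A1 tumors and S1pr3 17.5% to 41.5% of those of D2.1 tumors.

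Among the enzymes and the exporter, the phosphatase Sgpp1 (ENSMUSG00000021054, chr12:75714249-75735729, minus strand) was higher in D2.1 tumors in both hosts. Its level was 67.0 ± 20.5 CPM (48.6 to 93.3) in D2.1 and 34.8 ± 5.70 CPM (26.7 to 39.0) in D2A1 BALB/c tumors, with a log2 fold change of 0.92 ± 0.24 (adjusted p = 0.013). In SCID-beige mice it was 66.6 ± 14.2 CPM (49.4 to 82.3) against 26.0 ± 5.90 CPM (19.2 to 31.8), or 1.36 ± 0.20 (adjusted p = 2.0e-04). The groups did not overlap in either host, while in culture they did (50.0 to 63.5 CPM in D2.1 and 59.3 to 80.8 CPM in D2A1).

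The lyase Sgpl1 (ENSMUSG00000020097, chr10:61098642-61147703, minus strand), which ends S1P signaling by cleaving it, lay at 178 ± 21.2 CPM in D2.1 and 117 ± 26.4 CPM in D2A1 tumors of SCID-beige mice (0.60 ± 0.17, adjusted p = 0.013; 0.053 without D2A1 replicate 1). In BALB/c mice its log2 fold change was 0.44 ± 0.21 (adjusted p = 0.13), with 179 ± 47.3 against 129 ± 22.6 CPM. Same-numbered BALB/c tumors of the 2 lines correlated at 0.10 to 0.49, but no source says that the numbers mark a shared batch. Only D2.1 replicate 2 correlated best with the D2A1 tumor of its own number. With the number as a block Sgpl1 passed in BALB/c mice (0.42, adjusted p = 0.0077). So did the kinase Sphk1 (0.35, adjusted p = 0.034), which without the block gave 0.33 ± 0.24 (adjusted p = 0.33).

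Sphk1 (ENSMUSG00000061878, chr11:116530925-116536674, plus strand) did not pass in SCID-beige mice (0.27 ± 0.17, adjusted p = 0.26), where its level was 54.8 ± 7.35 CPM in D2.1 and 45.1 ± 9.38 CPM in D2A1 tumors. Sphk2 (ENSMUSG00000057342, chr7:45709467-45718002, minus strand), the other kinase, did not pass in either host (0.25 ± 0.18 and 0.15 ± 0.19, adjusted p = 0.34 and 0.59), at 43.1 to 53.0 CPM on average over the 4 groups of tumors. Sphk2 shares 373 of its 4159 exonic bases with the ribosomal gene Rpl18 on the other strand, which reached 19054 counts in a tumor, and the strand setting of the counts is not given in the sources used here, so its level is uncertain.

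Spns2 (ENSMUSG00000040447, chr11:72451638-72489904, minus strand), the S1P exporter, was the member that was lower in D2.1 tumors. D2.1 BALB/c tumors held 16.5, 8.74, 13.3 and 18.6 CPM and D2A1 tumors 42.9, 32.8, 28.9 and 32.5 CPM. In SCID-beige mice the D2.1 tumors held 10.1, 8.27, 7.31, 14.1 and 9.32 CPM and the D2A1 tumors 33.8, 32.2, 30.4, 21.9 and 32.4 CPM. The lines did not overlap, and the log2 fold change was -1.29 ± 0.25 in BALB/c (adjusted p = 0.0027, 2.40-fold lower) and -1.63 ± 0.21 in SCID-beige mice (adjusted p = 6.5e-05, 3.07-fold lower). In culture the order was the other way, with 14.4, 15.7 and 13.0 CPM in D2.1 and 6.73, 8.15 and 4.39 CPM in D2A1, again without overlap. Spns2 shares 131 of its 4083 exonic bases with Mybbp1a on the other strand, which reached 7925 counts in a tumor and 21942 in a culture library, so its level carries the same uncertainty as that of Sphk2. Endothelium is a known site of Spns2 expression, and the endothelial sums given above for S1pr1 were also higher in D2A1 tumors; their part in the Spns2 level was not tested.

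**Figure D3:**
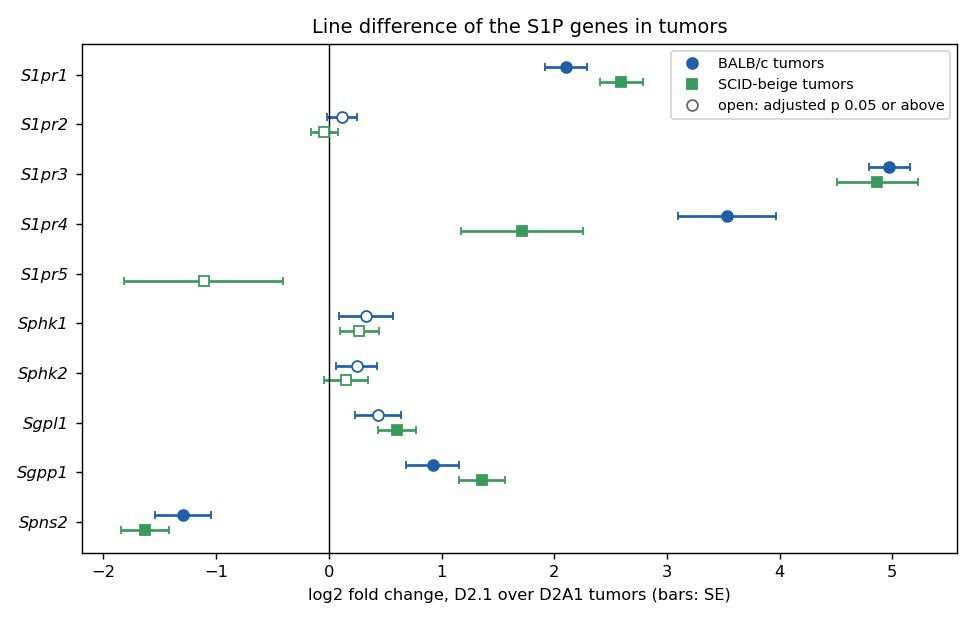
Log2 fold change of each S1P gene between D2.1 and D2A1 tumors (x axis, positive where higher in D2.1; bars are SE) in BALB/c (circles) and SCID-beige mice (squares), with open symbols for adjusted p of 0.05 or above. S1pr3 lies near 5 in both hosts, S1pr2 near 0, and Spns2 at -1.29 and -1.63; S1pr5 was not tested in BALB/c mice.

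The comparison of hosts asks whether the S1P genes differ between tumors of BALB/c and SCID-beige mice. It does not isolate adaptive immunity, since SCID-beige mice also have defective NK cells and the beige mutation. In D2.1 tumors 1 of 9 tested members passed, S1pr4, which was 4.39-fold higher in BALB/c than in SCID-beige mice (2.12 ± 0.38, adjusted p = 0.025), beside 0.891% of 14929 genes (0.871% higher and 0.0201% lower). Its libraries did not overlap between hosts, which held for 4.35% of all genes. The call was lost without any 1 of 5 tumors (BALB/c replicates 1, 3 and 4, SCID-beige replicates 1 and 3; adjusted p of 0.057 to 0.095) and without BALB/c replicates 1 and 4 together (2.06, adjusted p = 0.42). Lymphocyte markers moved with it: 9 of 10 T cell genes were higher in BALB/c mice, with sums of 111 to 290 CPM against 17.4 to 43.6 CPM, and NK cell sums were 90.5 to 135 against 27.6 to 78.9 CPM, although 1 of 7 NK cell genes passed. Cd3e, a defining T cell gene, was at 7.80 to 22.5 CPM in BALB/c and at 0 to 0.397 CPM in SCID-beige mice, and the part of these cells in the S1pr4 level was not tested.

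No other member passed in D2.1 tumors. S1pr3 gave 0.52 ± 0.28 (adjusted p = 0.60; 2-sided exact permutation p = 0.13), Spns2 0.52 ± 0.28 (adjusted p = 0.60) and S1pr1 -0.40 ± 0.16 (adjusted p = 0.40, unadjusted p = 0.029), and the other 5 lay between -0.11 and 0.12. In D2A1 tumors 0 of 10 members passed by edgeR, by DESeq2 or at an unadjusted p under 0.05, beside 1.17% of 14572 genes, and the hosts overlapped for all 10, beside 5.37% of genes without overlap. S1pr3 gave 0.39 ± 0.27 there (2-sided exact permutation p = 0.14), S1pr4 0.26 ± 0.60 and the other 8 between -0.19 and 0.41. T cell sums were 12.5 to 36.4 CPM in D2A1 BALB/c tumors and 5.78 to 9.63 CPM in those of SCID-beige mice, below those of D2.1 tumors in the same host. The interaction of line and host passed for 0 of 10 members by edgeR and by DESeq2, beside 0.0187% of 16036 genes, with 1 member at an unadjusted p under 0.05 (S1pr4, 1.82 ± 0.69, unadjusted p = 0.016, adjusted p = 0.48).

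Tumors of SCID-beige mice were compared with the same line in culture, although tissue and deposited table cannot be told apart there. S1pr3 is described only: its mean was 18.1-fold higher in D2.1 tumors than in cultured D2.1 cells, without overlap, and at least 31.8-fold higher in D2A1 tumors than the floor of cultured D2A1 cells. S1pr4, at 0 counts in cultured D2.1, passed the filter through the tumors and was at least 14.3-fold higher in them, and it is left out of the count for that reason. Of the other 7 tested members 4 were higher in D2.1 tumors, beside 53.1% of 14111 genes in either direction (30.8% higher and 22.3% lower), and the libraries did not overlap for these 4, beside 51.4%. These were S1pr1 (0.75 ± 0.21, adjusted p = 0.012), S1pr2 (1.25 ± 0.14, adjusted p = 4.2e-05), Sphk1 (0.83 ± 0.16, adjusted p = 0.0015) and Sphk2 (0.57 ± 0.19, adjusted p = 0.027). Without culture replicate 3, S1pr1 (adjusted p = 0.056) and Sphk2 (adjusted p = 0.083) were lost. Sphk2 was also lost without culture replicate 1 or 2 or tumor replicate 1 or 2 (adjusted p of 0.071 to 0.096).

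In D2A1, S1pr4 was at 4, 0 and 1 counts in culture and is left out in the same way, and 6 of the other 8 members passed, 5 higher and 1 lower in tumors, beside 58% of 13880 genes (33.5% higher and 24.5% lower), and the libraries did not overlap for these 6, beside 56.8%. S1pr1 was 11.5-fold higher (3.54 ± 0.29, adjusted p = 1.7e-06) and Spns2 4.70-fold higher (2.24 ± 0.25, adjusted p = 1.9e-05). S1pr2 (0.69 ± 0.13), Sphk1 (1.49 ± 0.21) and Sphk2 (0.65 ± 0.20) also rose, Sphk2 with an adjusted p of 0.069 without culture replicate 1. S1pr4 is described only: its libraries overlapped, and its log2 fold change was 2.73 ± 0.92. It was 4.26 without culture replicate 1, and 2.18 and 2.45 without culture replicates 2 and 3. Sgpp1 fell by 1.35 ± 0.21 on the log2 scale (adjusted p = 2.2e-04), from 66.8 ± 12.2 to 26.0 ± 5.90 CPM. Sgpl1 gave 0.51 ± 0.22 (adjusted p = 0.069), and passed with the replicate number as a block (0.36, adjusted p = 0.022) and without culture replicate 3 or tumor replicate 1 or 2 (adjusted p of 0.022 to 0.040). For Spns2 in D2.1 the value was -0.52 ± 0.25 (adjusted p = 0.095; 0.018 without tumor replicate 4), and the difference between the lines in this contrast was not tested. The endothelial list, at or under 3.37 CPM in every culture library, reached 78.2 to 127 CPM in D2.1 and 277 to 373 CPM in D2A1 tumors of SCID-beige mice, and its part in the S1pr1 and Spns2 levels was not tested.

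In culture 7 members other than S1pr3, whose difference there chose it, passed the filter. For 6 of them the libraries of the lines did not overlap, 5 higher and 1 lower in D2.1, beside 55.6% of 12489 genes. Besides S1pr1, S1pr2 and Spns2, these were Sgpl1 (202 ± 20.9 CPM in D2.1 against 82.5 ± 21.5 CPM in D2A1, 2.45-fold), Sphk1 (31.4 ± 2.12 against 16.2 ± 1.32 CPM, 1.94-fold) and Sphk2 (33.2 ± 1.37 against 27.7 ± 1.74 CPM). Sgpp1 overlapped, at 57.4 ± 6.85 and 66.8 ± 12.2 CPM.

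**Figure D4:**
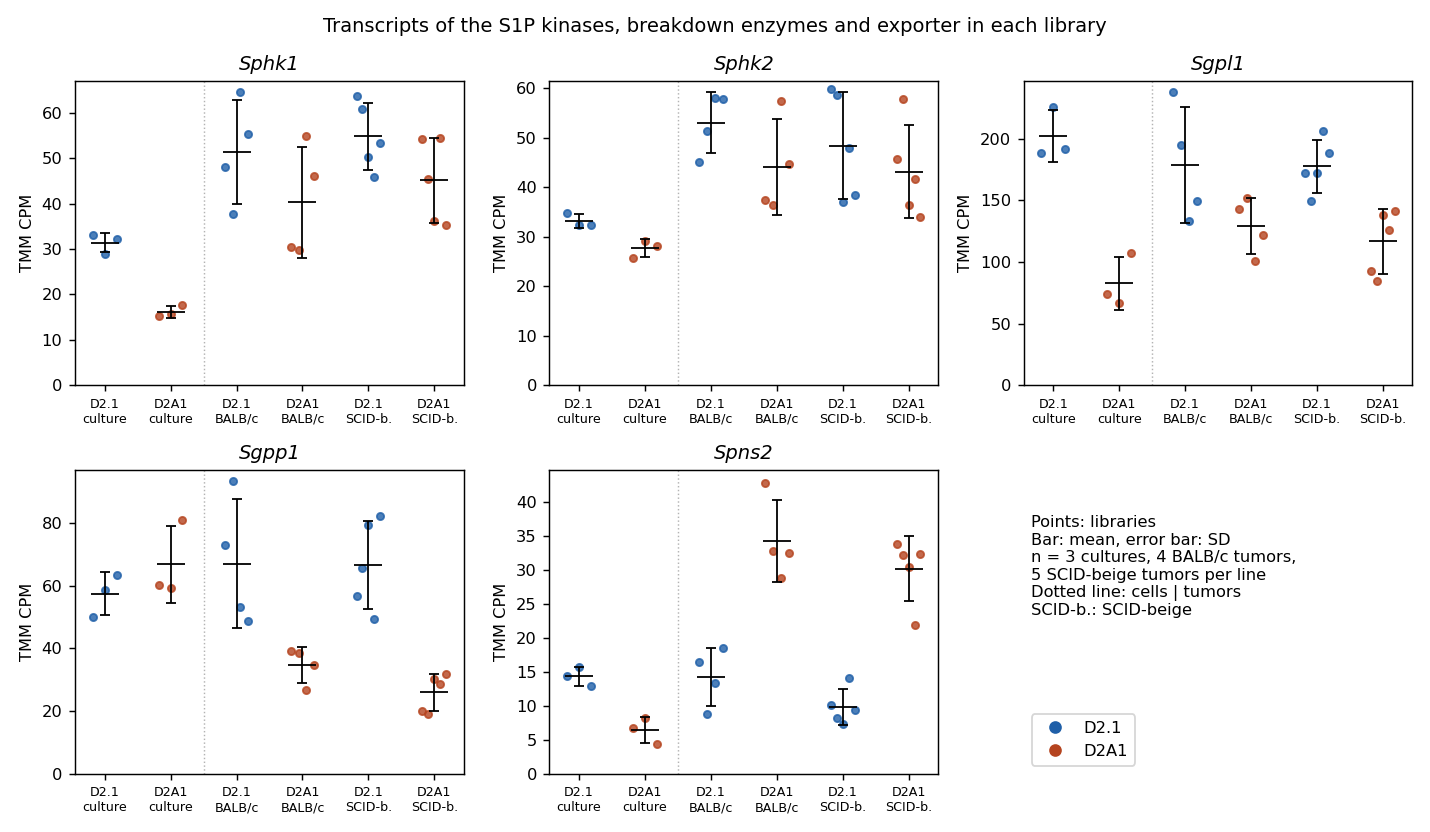
Levels of the S1P kinases, lyase, phosphatase and exporter in TMM-normalized CPM (y axis, linear, own scale per panel) in the 6 groups (x axis); points are libraries, bars the mean and SD. Spns2 is higher in D2.1 than in D2A1 cells in culture (14.3 against 6.42 CPM on average) and lower in D2.1 than in D2A1 tumors (14.3 against 34.2 CPM in BALB/c mice, 9.82 against 30.2 CPM in SCID-beige mice).

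Lists of neighbouring pathway genes were described by the same tests. Of 10 genes that carry S1P or dephosphorylate lipid phosphates, 8 were tested in BALB/c mice (1 higher and 2 lower in D2.1 tumors) and 7 in SCID-beige mice (1 higher and 2 lower), beside the 32.6% and 32.1% of all genes called in either direction. The higher gene was Plpp3 in both hosts, a phosphatase that removes the phosphate of extracellular S1P and lysophosphatidic acid, at 84.7 ± 33.8 against 8.56 ± 2.18 CPM in BALB/c (3.28 ± 0.31) and 136 ± 52.9 against 7.39 ± 2.98 CPM in SCID-beige mice (4.21 ± 0.34). The lower genes were the ABC transporters Abcg2 (-2.34 ± 0.31 and -2.99 ± 0.25) and Abcc1 (-0.996 ± 0.24 and -0.75 ± 0.20). The list's median log2 fold change was 0.18 and -0.03, against -0.02 and 0.02 over all genes.

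Among 7 relatives for lysophosphatidic acid, a lipid signal of similar structure, all 6 tested genes passed in BALB/c mice (3 higher and 3 lower) and all 5 tested in SCID-beige mice (3 higher and 2 lower), beside 32.6% and 32.1% of all genes, with medians of 0.24 and 0.92 against -0.02 and 0.02 over all genes. Enpp2, the enzyme autotaxin that makes lysophosphatidic acid, was at 203 ± 66.0 against 22.6 ± 9.06 CPM in BALB/c (3.14 ± 0.37) and 282 ± 110 against 40.1 ± 13.3 CPM in SCID-beige mice (2.81 ± 0.31). The receptors Lpar1 (1.53 ± 0.18 and 0.92 ± 0.18) and Lpar5 (2.16 ± 0.54 and 2.21 ± 0.49) were higher as well. Lpar6 (-1.11 ± 0.21 and -0.69 ± 0.17) and Lpar2 (-1.05 ± 0.20 and -0.66 ± 0.24) were lower in both hosts, and Lpar4 was lower in BALB/c mice at under 1 CPM on average.

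Targets of the transcription regulators YAP and SRF were described in the same way. Of 13 genes 6 were lower and none was higher in BALB/c mice (median -0.75), and of 12 tested in SCID-beige mice 6 were lower and 1, Axl, was higher (median -0.99; Axl 0.64 ± 0.21). Over all genes 15.8% were lower and 16.8% higher in BALB/c mice and 14.8% and 17.2% in SCID-beige mice, with medians of -0.02 and 0.02. Ankrd1 lay at 7.996 ± 4.16 against 70.8 ± 3.52 CPM in BALB/c (-3.18 ± 0.37) and 13.0 ± 4.61 against 57.9 ± 9.07 CPM in SCID-beige mice (-2.16 ± 0.25). Ccn1 lay at 63.3 ± 7.99 against 256 ± 25.8 CPM (-2.04 ± 0.15) and 94.4 ± 19.9 against 407 ± 103 CPM (-2.12 ± 0.20), and Ajuba gave -1.33 ± 0.20 and -1.38 ± 0.23. In culture the list's median was 0.72, against -0.02 over all genes. There 7 genes were higher and 4 lower in D2.1 without overlap, beside 55.6% of all genes without overlap. Against culture 8 of 13 genes were lower and 1 higher in D2.1 tumors, and 7 lower and 3 higher in D2A1 tumors, of SCID-beige mice, beside 22.3% lower and 30.8% higher over all genes in D2.1 and 24.5% and 33.5% in D2A1.

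Genes of ceramide metabolism supply sphingosine. Of 13 tested genes of ceramide synthesis, 1 was higher and 4 were lower in D2.1 BALB/c tumors, and 2 were higher and none lower in SCID-beige mice, with Ormdl3, a regulator of the first enzyme of the pathway, higher in both (0.82 ± 0.20 and 0.60 ± 0.17). Of the genes of ceramide breakdown and conversion, 3 of 14 were higher and 2 lower in BALB/c mice and 2 of 13 were higher in SCID-beige mice, with the sphingomyelinase Smpd1 higher in both (1.09 ± 0.16 and 0.63 ± 0.17). Over all genes 32.6% and 32.1% were called in the 2 hosts, and the medians were -0.12 and 0.10 for synthesis and 0.10 and 0.09 for breakdown, so neither list is read as apart from all genes. The acid ceramidase Asah1, which releases sphingosine, was lower in D2.1 BALB/c tumors (-0.84 ± 0.17), at 62.0 ± 9.65 against 109 ± 16.4 CPM. Between hosts, 0 of the 52 tested genes of all the pathway lists described here passed by edgeR in either line. Over all genes 0.891% passed in D2.1 and 1.17% in D2A1 tumors, so a count of 0 is not read as apart from all genes. At an unadjusted p under 0.05 by edgeR there were 7 list genes in D2.1 and 4 in D2A1 tumors.

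S1pr3 varied among tumors of the same group, and this variation was set beside the mural cell list (10 genes of pericytes and vascular smooth muscle). In the 9 D2.1 tumors, S1pr3 rose with the mural sum on the log2 scale, with Pearson's r = 0.85 and Spearman's coefficient = 0.95 (2-sided exact permutation p = 0.0034 and 3.5e-04, 0.020 and 0.0021 after adjustment over 6 relations). Without the 2 tumors farthest from the median r was 0.82, and with both measures centred within host it was 0.77. In the 9 D2A1 tumors r was -0.01 and Spearman's coefficient -0.23 (adjusted exact permutation p = 0.98 and 0.55), and r was 0.14 without the 2 farthest tumors and 0.59 centred within host. The relation of S1pr3 to the endothelial sum did not pass in either line (r = 0.33 and -0.23, adjusted exact permutation p = 0.58 and 0.67; Spearman's coefficient 0.33 and -0.58, p = 0.52 and 0.24).

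**Figure D5:**
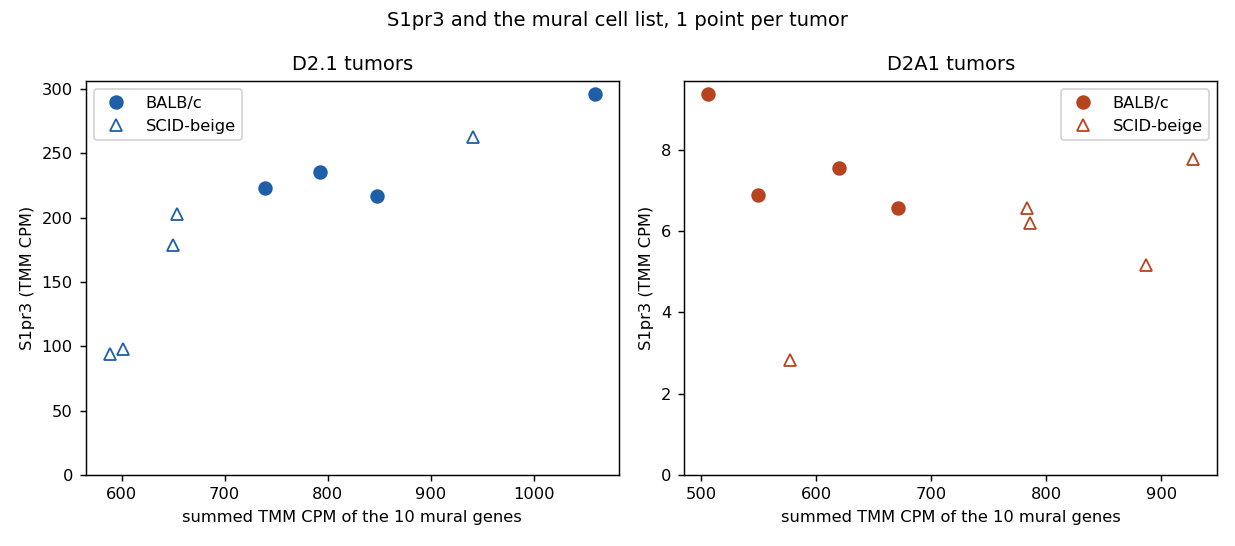
S1pr3 level (y axis, TMM-normalized CPM, linear from 0) against the summed level of 10 mural genes (x axis, CPM) in D2.1 tumors (left) and D2A1 tumors (right), 1 point per tumor, filled for BALB/c and open for SCID-beige mice. The 2 D2.1 tumors with the lowest S1pr3 (94.2 and 97.5 CPM) have the lowest mural sums (588 and 601 CPM).

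The mural list is not specific to host cells here. Its sum was 311 to 370 CPM in cultured D2.1 and 68.7 to 109 CPM in cultured D2A1 cells, and 3 of its 10 genes (Pdgfrb, Notch3 and Acta2, named after their values were seen) were above 10 CPM in cultured D2.1. In D2.1 BALB/c tumors Pdgfrb alone was at 602 ± 69.5 CPM. When the sum was taken over the other 7 genes, a choice made after the values were seen, r was 0.33 (unadjusted exact permutation p = 0.38) in D2.1 and 0.83 (unadjusted exact permutation p = 0.0060) in D2A1 tumors. Mcam, 1 of these 7, was at 18.5 ± 8.12 CPM in cultured D2A1 cells and at 83.6 ± 6.17 and 82.1 ± 10.8 CPM in D2A1 tumors of BALB/c and SCID-beige mice, the highest of the 7. Over the 6 genes at or under 10 CPM in both cultures, r was 0.45 in D2.1 (unadjusted exact permutation p = 0.22) and 0.72 in D2A1 (unadjusted exact permutation p = 0.0092), and without the 2 farthest tumors -0.13 and 0.44, so the relation depended on which mural genes were summed and, over these 6, on those tumors. The fibroblast sum, set beside S1pr3 after the values were seen, also moved with it: r was 0.87 in D2.1 tumors (unadjusted exact permutation p = 8.9e-04; 0.75 without the 2 farthest tumors and 0.81 centred within host) and 0.77 in D2A1 tumors (unadjusted exact permutation p = 0.0088; 0.59 and 0.78). Spearman's coefficient was 0.87 and 0.68 (unadjusted exact permutation p = 0.0045 and 0.050). The part of mural cells and fibroblasts in the S1pr3 level was not tested.

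By the deviations of log2 CPM from the means of the 4 tumor groups, the 5 protein-coding genes most like S1pr3 over 18 tumors and 12724 genes were Dkk3 (r = 0.89), Crebl2 (0.88), Stat4 (0.88), Fam131b (0.87) and Stat5a (0.87). These points share libraries and depth, and 2 of the 5 were also among the first 5 by Spearman's measure. Dkk3, a secreted protein of the Dickkopf family, was at 263 CPM on average in D2.1 and 8.36 CPM in D2A1 BALB/c tumors and at 147 and 7.30 CPM in SCID-beige mice. Within D2.1 tumors its deviations gave r = 0.97 with those of S1pr3, and within D2A1 tumors 0.75. Among the 8 other S1P genes with a mean of at least 1 CPM the correlation with S1pr3 was between -0.23 (Spns2) and 0.40 (Sgpp1).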

How the data were processed

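Bulk RNA-seq of 6 culture and 18 tumor libraries was analysed, grouped by the labels. Values deposited per gene are raw read counts that the authors did not normalize; the submitters' processing notes name STAR and mm10, and the counting program, annotation and strand setting are not given in the sources used here. The deposited FPKM equal these counts scaled to gene length and library total, with lengths that differ between the cell and tumor tables. Genes were matched to GENCODE M21 by identifier (unmatched rows held 0.0969% and 0.0446% of the counts).

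Counts were tested with edgeR 4.0.16 (TMM, filterByExpr, robust quasi-likelihood) in R 4.3.3, on the groups compared (all tumors for the interaction), with Benjamini-Hochberg adjustment over all genes tested and a threshold of 0.05. The SE is the log2 fold change divided by the root of F. DESeq2 1.42.0, other size factors and filters, a replicate block and left-out libraries were alternatives. CPM used TMM factors over all 24 libraries, folds were taken of group means, and a group at 0 was set to 3 counts per library, which covers counting error only. Exact permutation tests of S1pr3 used log2(CPM + 0.1), and those over 9 tumors enumerated 362880 orders. Scripts were tested on simulated data.

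All 38 replicate pairs differed beyond sampling noise (chi-square over its degrees of freedom, 4.96 to 117). No source says that cultures were independent, so p-values measure the spread between these samples. Same-numbered samples deviated together between lines in BALB/c tumors (r of 0.10 to 0.49) and in culture (0.18 to 0.49) and between D2A1 tumors and culture (0.13 to 0.27). Named genes were the 10 members, genes overlapping them, the first 2 of each marker list, up to 3 passing genes per pathway list and direction with the largest change, and the 5 genes most like S1pr3 (mean of at least 1 CPM). Members and lists were chosen with earlier results of these data known. The results of 1 pathway list are not reported here.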

Additional observations from a re-analysis of the deposited data

Results flagged for a closer look

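In groups of 4 or 5 tumors, 2 of 40 combinations of gene and group had a library far from the others, where chance gives about 1 in 20. S1pr4 was at 0.237 CPM, or 4 counts, in replicate 2 of the D2A1 BALB/c tumors, with the other 3 at 1.003 to 1.13 CPM. Spns2 was at 21.9 CPM in replicate 4 of the D2A1 tumors of SCID-beige mice, with the other 4 at 30.4 to 33.8 CPM.

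Spns2 went in opposite directions between the lines in culture and in tumors. Every D2.1 library was above every D2A1 library in culture, and every D2.1 tumor was below every D2A1 tumor, with a log2 fold change of -1.29 in BALB/c and -1.63 in SCID-beige mice. The difference between culture and tumors was not tested, and cells and tumors come from separate tables.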

How the results depend on the processing

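S1pr3, S1pr1, Sgpp1 and Spns2 passed between lines in both hosts under every alternative run (15 in BALB/c and 16 in SCID-beige mice), with S1pr3 at 4.88 to 5.07 and 4.63 to 5.01. In D2.1 tumors the count of members differing between hosts was 1, and it was 0 with the replicate block, 0 without BALB/c replicates 1 and 4 together and 0 to 1 with 1 tumor left out; S1pr4 kept its direction (1.97 to 2.50, passing in 9 of 16 alternatives), and fewer tumors enter these fits. Between D2.1 tumors and culture the count, 5 with S1pr4 included, ranged from 3 to 6 with 1 library left out. The S1pr3 interaction of 0.10 lay between -0.050 and 0.33 with 1 tumor left out. The cause of these changes was not tested. Of the relations, r changed sign for S1pr1 with the endothelial sum in D2.1 tumors centred within host (0.059), for S1pr3 with the endothelial sum in D2.1 tumors centred within host (-0.17) and in D2A1 tumors without the 2 farthest (0.012), and for S1pr3 with the mural sum in D2A1 tumors without the 2 farthest (0.14), centred (0.59), over 7 genes (0.83) or over 6 genes (0.72).

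With the replicate block, 7 in place of 5 members passed between lines in BALB/c mice, and Sgpl1 passed as well between D2A1 tumors and culture. Between hosts in D2.1 tumors, where same-numbered samples did not deviate together, the block left S1pr4 at an adjusted p of 0.12. The block changed no other call of a member. The alternatives for the comparison in culture, the interaction without 2 tumors and the 7-gene and 6-gene mural and fibroblast sums were chosen after the data were seen. CPM without TMM factors and TMM within each table moved each group's S1pr3 mean by less than its SD. At these depths differences in S1pr5, and in S1pr4 of D2A1, rest on few counts.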
